A study of Mus musculus with 24 samples.

Results

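The data describe how gene expression moved between day 33 and day 42 of culture in mouse embryonic fibroblasts (MEFs) that lack cGAS, compared with the same 9 days in wild-type (WT) MEFs. The quantity followed is the change in the knockout (KO, log2 CPM on day 42 minus day 33) minus the change in WT. CPM is the count scaled to a common library size. A value of 1 means that the KO culture gained 2-fold relative to what the WT culture did. All genes with 5 CPM or more in any of the 4 libraries were taken, which gave 12258 of the 45706 genes in the table.

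Primary MEFs of the C57B1/6 strain (spelled as in the labels), WT or cGAS KO, were serially passaged in 20% oxygen, and total RNA of each bulk population was taken on days 33, 36 and 42, at passages 11, 12 and 14. Each genotype and day has 4 deposited columns. The columns of a group differed by less than the sampling noise of reads (mean chi-square per degree of freedom of 0.832 to 0.843) and were summed and counted as 1 sample, so each group is 1 library and day, passage and culture cannot be told apart. The 6 libraries held 25650577 to 48716880 counts. No replicate spread exists for a single difference between libraries, so changes below are described by size, with "rose" and "fell" kept for 2-fold or more. Intervals in the text are 95% counting intervals, which cover the sampling of reads only and not the variation between cultures. In bulk RNA, fewer cells of a type and less RNA per cell cannot be told apart.

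cGAS is a cytosolic sensor that binds double-stranded DNA and makes the cyclic dinucleotide cGAMP, which activates STING (Tmem173) and, through TBK1 and IRF3 and through NF-kB, interferons and inflammatory genes. MEFs kept in atmospheric oxygen accumulate oxidative DNA damage, slow down and either senesce or give rise to immortal cells that outgrow the rest. Embryonic fibroblasts also keep the HOX and other positional transcription factors of the body region they came from.

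The targeted gene, Mb21d1, read 4.74, 4.08 and 4.80 CPM in WT on days 33, 36 and 42, and 0.239, 0 and 0.127 CPM in KO. It was low in every KO library and below the 5 CPM minimum throughout, so it is not among the 12258 genes. Of the 12 fibroblast markers, all 12 were among them. Xist, the X-inactivation RNA, measured 478, 465 and 640 CPM in KO, against 0.363, 0.184 and 0.0572 CPM for WT, so the cultures differ in sex-linked expression beside the genotype, and its part in the results was not tested. X-linked genes passed 2-fold in 46 of 574 cases, or 8.01%, close to the 7.94% of all 12258 genes.

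Of the 12258 genes, 973 differed by 2-fold or more between the genotypes in their change, 7.94%. The KO change was the higher one for 311 genes (2.54%) and the lower one for 662 (5.4%). The middle of the distribution was near 0, with quartiles of -0.24 and 0.26 around a median of 0.02 (log2). Low genes passed 2-fold more often, 32.0% of those with a mean below 5 CPM against 9.68% at 5 to 20 CPM, 4.85% at 20 to 100 CPM and 5.22% above. Around the minimum itself, 16.6% of the 404 genes whose highest library was at 5 to 6 CPM passed 2-fold, as did 17.5% of the 498 genes at 4 to 5 CPM, which were left out. Among the 973 genes, 15 had a library with 0 counts.

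Each genotype's own change divides these genes. In KO, 193 of the 12258 genes rose (1.57%) and 436 fell (3.56%), and in WT 376 rose (3.07%) and 264 fell (2.15%). The genotypes moved opposite ways, each past 2-fold, for 115 of the 973 genes: 90 fell in KO and rose in WT, and 25 rose in KO and fell in WT. KO alone passed 2-fold for 287 genes, of which 203 fell and 84 rose. WT alone did so for 268 genes, of which 174 rose and 94 fell. For 274 genes neither genotype reached 2-fold by itself, and 29 genes went the same way past 2-fold in both.

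**Figure D1:**
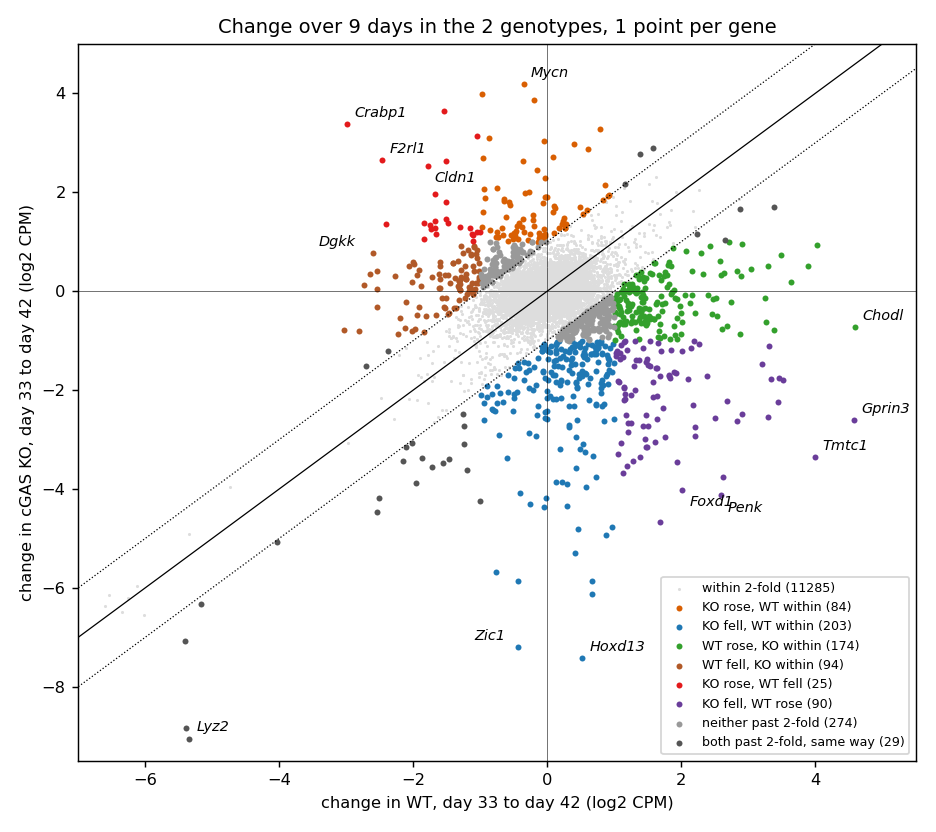
Change from day 33 to day 42 in cGAS KO (vertical axis) against WT (horizontal axis), both in log2 CPM, 1 point per gene for 12258 genes. The solid line marks equal change and the dotted lines a 2-fold difference; the 90 genes that fell in KO and rose in WT fill the lower right, with 25 genes in the upper left.

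The day 36 libraries, which did not enter the classes, place the changes in time. Genes that fell in KO and rose in WT had a median KO change of -2.06 from day 33 to 36 and 0.07 from day 36 to 42, whereas their median WT change was -0.44 and then 2.16. In KO, 85 of these 90 genes made the larger step by day 36, against 6321 of all 12258 genes (51.6%). In WT, 79 of the 90 made it after day 36, against 9537 of 12258 (77.8%). The 203 genes that fell in KO alone went by -1.47 and then -0.21, with 178 of 203 moving mostly by day 36. The 84 that rose in KO alone went by 1.29 and then 0.29, with 75 of 84 mostly by day 36. The 174 genes that rose in WT alone were at -0.10 by day 36 and then gained 1.67, with 157 of 174 moving mostly after it, and 89 of the 94 that fell in WT alone did the same. The steps share the day 33 and day 42 libraries with the rule, so these medians describe when the change was seen and are no test of it. They also rest on 1 library per genotype on day 36. Those libraries stood apart in mitochondrially encoded RNA, which took 0.694% of counts in KO and 2.38% in WT on day 36, against 1.27% and 0.889% in KO and 1.88% and 1.096% in WT on days 33 and 42. Its part in the day 36 values was not tested.

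**Figure D2:**
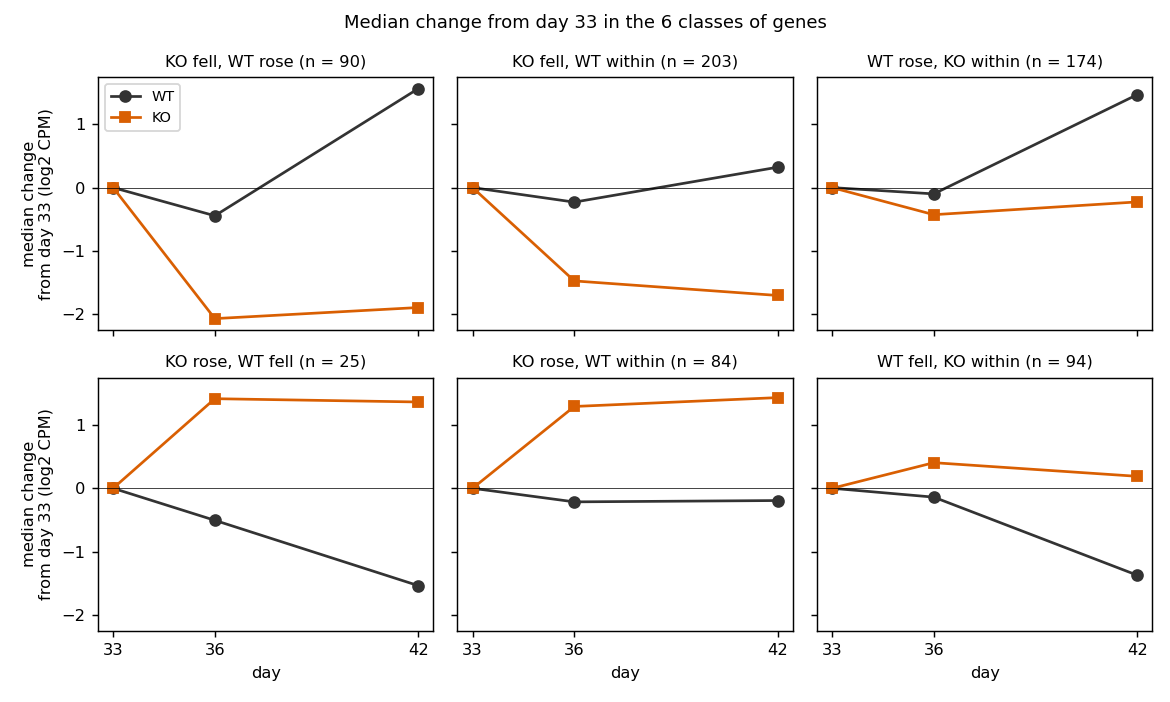
Median change from day 33 (log2 CPM, vertical axis) on days 33, 36 and 42 (horizontal axis) in WT (circles) and KO (squares) for the 6 classes of genes. In the classes set by KO the step lies before day 36, as in the fall of -2.06 for the 90 opposite genes, and in those set by WT it lies after, as in the gain of 1.67 for 174 genes.

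On day 33 KO was 2-fold or more above WT, and on day 42 2-fold or more below it, for 44 genes, and 14 genes crossed the other way. Of the 662 genes with a lower KO change, the genotypes were within 2-fold on day 33 and past it on day 42 for 277, and the reverse held for 99. Of the 311 with a higher KO change, 111 differed only on day 42 and 84 only on day 33. Over all 12258 genes, 714 differed by 2-fold only on day 42 and 336 only on day 33. The day 42 gap minus the day 33 gap is the value by which the genes were chosen. These counts therefore describe the chosen genes and are no test.

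The start-site windows of 4 genes that lead their classes are shown here: Crabp1 (rose in KO, fell in WT), Tmtc1 (fell in KO, rose in WT), Hoxd13 (fell in KO) and Chodl (rose in WT). They were picked after their values were seen. Each is 300 bases from 250 before to 50 after the RefSeq start, GRCm38.p6, written 5′ to 3′ on the gene's strand: Crabp1 chr9:54764498-54764797 (plus), Tmtc1 chr6:148444303-148444602 (minus), Hoxd13 chr2:74667975-74668274 (plus) and Chodl chr16:78930698-78930997 (plus). Capitals mark matches to 10 motifs searched on both strands.
Crabp1: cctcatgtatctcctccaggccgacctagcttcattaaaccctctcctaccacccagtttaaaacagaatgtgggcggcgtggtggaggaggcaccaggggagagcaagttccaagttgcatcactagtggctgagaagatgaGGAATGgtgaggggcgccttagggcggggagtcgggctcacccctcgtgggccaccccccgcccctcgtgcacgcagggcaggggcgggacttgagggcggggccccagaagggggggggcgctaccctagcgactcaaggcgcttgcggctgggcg
Tmtc1: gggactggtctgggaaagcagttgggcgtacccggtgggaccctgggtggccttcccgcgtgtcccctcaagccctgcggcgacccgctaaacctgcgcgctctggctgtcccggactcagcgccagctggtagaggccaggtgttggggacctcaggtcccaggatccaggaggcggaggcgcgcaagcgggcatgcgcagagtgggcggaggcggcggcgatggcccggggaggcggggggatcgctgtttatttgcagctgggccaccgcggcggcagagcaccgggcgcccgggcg
Hoxd13: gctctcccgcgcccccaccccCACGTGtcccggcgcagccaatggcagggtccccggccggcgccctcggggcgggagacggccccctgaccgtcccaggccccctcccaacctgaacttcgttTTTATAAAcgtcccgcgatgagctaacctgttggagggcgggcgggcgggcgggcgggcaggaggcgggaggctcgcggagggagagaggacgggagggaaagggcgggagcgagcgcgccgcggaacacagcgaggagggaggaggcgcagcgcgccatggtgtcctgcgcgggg
Chodl: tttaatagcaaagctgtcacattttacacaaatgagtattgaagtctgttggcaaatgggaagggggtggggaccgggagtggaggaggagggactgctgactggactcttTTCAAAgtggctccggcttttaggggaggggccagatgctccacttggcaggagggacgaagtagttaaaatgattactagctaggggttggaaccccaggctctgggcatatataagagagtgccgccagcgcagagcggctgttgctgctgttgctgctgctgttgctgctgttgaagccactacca

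The Crabp1 window holds 1 TEAD motif (GGAATG), the Hoxd13 window an E-box (CACGTG) and overlapping TATA motifs (TATAAA) on both strands, the Chodl window 1 CHR motif (TTTGAA, minus strand), and the Tmtc1 window none of the 10. A RefSeq window was found for 8323 of the 12258 genes, and for 658 of the 973. TATAAA was in the windows of 8.39% of the 8323 genes, 12.9% of the 210 with a higher KO change and 16.3% of the 448 with a lower one. The AP-1 motif TGANTCA was in 6.02%, 12.9% and 8.04% in the same order, TTTGAA in 13.7%, 12.4% and 18.8%, GGAATG in 14.2%, 13.8% and 18.3%, and CACGTG in 12.3%, 12.9% and 8.48%. For the hypoxia core ACGTGC, which can overlap CACGTG, the shares were 9.78%, 9.52% and 7.81%, and for the CRE TGACGTCA 3.66%, 2.86% and 2.68%. The E2F motif TTTCCCGC gave 2.41%, 1.43% and 1.12%, the CArG box 1.73%, 1.90% and 2.01%, while the NF-kB site had 6.28% and 6.47% over all genes and those with a lower KO change, and was in 21 of the 210 with a higher one. Genes with several windows count once if any holds the motif, and a match is a description of letters only.

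Among the genes that fell in KO and rose in WT, Tmtc1, an endoplasmic reticulum O-mannosyltransferase, measured 78.6, 3.55 and 7.63 CPM in KO on days 33, 36 and 42, against 10.2, 42.7 and 164 CPM for WT. KO was high only on day 33 and WT climbed throughout, a difference of changes of -7.36 (-7.58 to -7.14). Penk, the enkephalin precursor, went from 7.98 to 0.448 and 0.406 CPM in KO and from 29.1 through 5.60 to 175.5 CPM in WT (-6.72). Islr, a secreted leucine-rich repeat protein of stromal cells, went from 37.1 to 4.52 and 7.83 CPM in KO and from 7.36 through 4.36 to 80.3 CPM in WT (-5.67). In both, WT dipped on day 36 before rising.

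Foxd1, Pax1, Gprin3, Clec14a and Sfrp2 are the other 5 of the 8 leading genes of this class. Foxd1, a forkhead factor of embryonic mesenchyme, had 20.5, 1.75 and 1.22 CPM in KO and 0.427, 0.757 and 1.89 CPM in WT. Pax1, a factor of the sclerotome that forms the vertebrae, had 5.20, 0 and 0.152 CPM in KO and never passed 0.800 CPM in WT. Gprin3, Clec14a and Sfrp2, a secreted Wnt modulator, ended at 5.32, 12.1 and 8.46 CPM in WT, against 0.406, 0.152 and 0.380 CPM for KO, with differences of -7.20, -6.38 and -5.85. Among lower-ranked genes, Eln (elastin) went from 11.7 to 1.01 CPM in KO and from 16.1 to 62.0 CPM in WT, and Fmod (fibromodulin) from 74.7 to 12.1 CPM in KO and from 27.5 to 196.7 CPM in WT.

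In the opposite direction, Crabp1, a cytosolic retinoic acid binding protein, measured 2.84, 50.3 and 30.1 CPM in KO, against 113, 70.7 and 14.1 CPM for WT, a difference of 6.37 (6.05 to 6.70). KO was 10.6-fold higher on day 42 than on day 33 and WT 7.98-fold lower. F2rl1, the protease-activated receptor 2, went from 6.997 to 42.9 and 44.4 CPM in KO and from 30.5 through 23.95 to 5.49 CPM in WT (5.12). Cldn1, a tight junction claudin, went from 4.49 through 16.3 to 26.2 CPM in KO and from 20.2 through 8.90 to 5.83 CPM in WT (4.32). In these 3 genes the order of the genotypes on day 42 was the reverse of that on day 33. Slco4a1, a membrane transporter, reached 24.5 CPM in KO and fell to 2.60 CPM in WT. C77370, Lrrtm1, Fndc3c1 and Eml5 completed the 8, at differences of 3.32 to 5.18 and at most 9.56 CPM in any library. In WT, Lrrtm1 went from 36 to 12 counts (0.768 to 0.343 CPM) and Fndc3c1 from 31 to 6 (0.661 to 0.171 CPM). The counting intervals of their WT ratios, day 42 over day 33, were 0.212 to 0.878 and 0.0884 to 0.631. Both include falls of less than 2-fold.

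**Figure D3:**
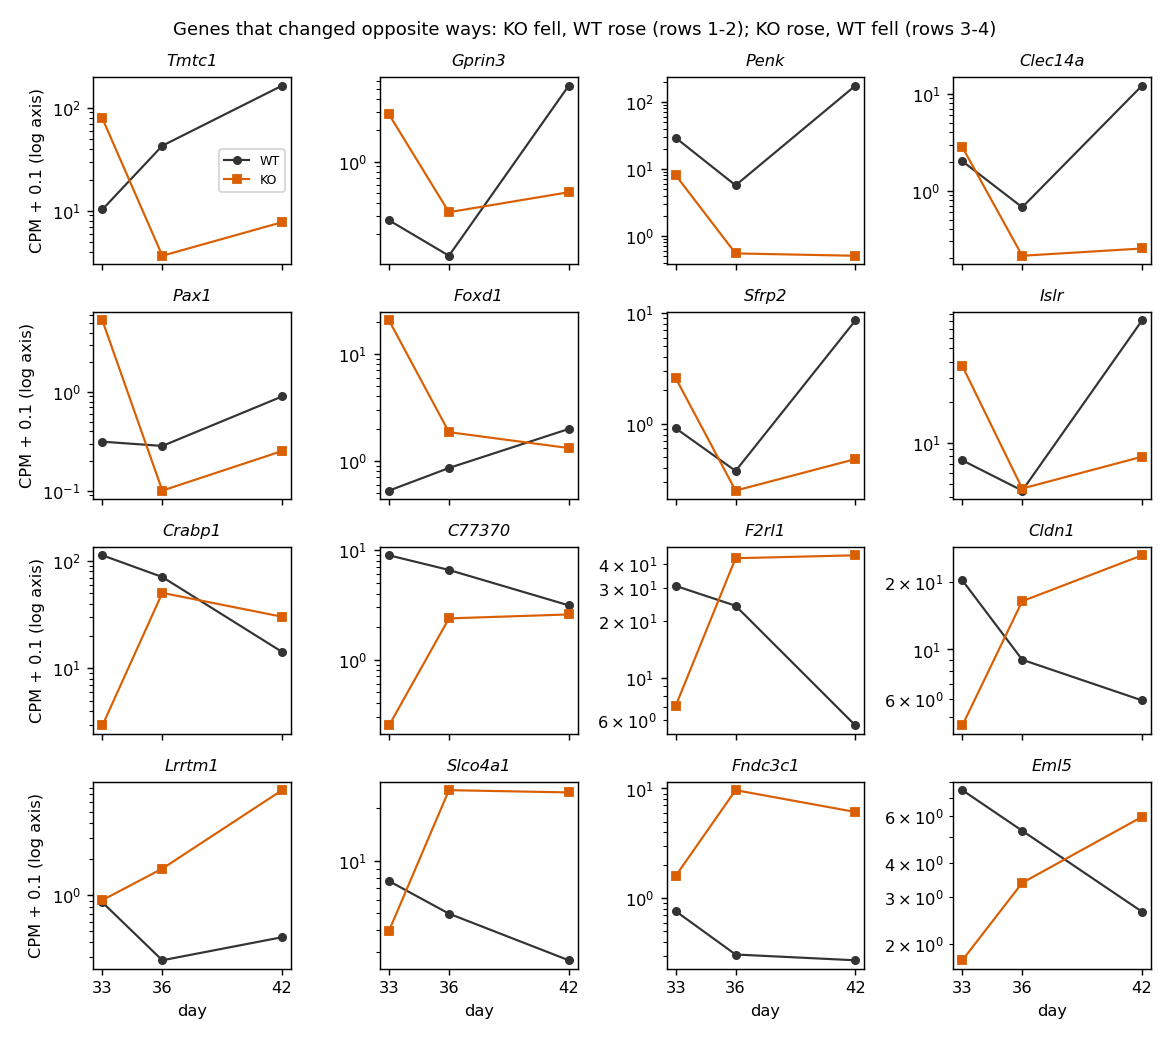
CPM + 0.1 on a log axis against day for the 16 genes that lead the 2 opposite classes, in WT (circles) and KO (squares), 1 library per point. KO drops by day 36 in the upper 8 panels, as for Tmtc1 from 78.6 to 3.55 CPM, and WT is higher on day 42 than on day 33; in the lower 8 panels KO is higher and WT lower on day 42 than on day 33.

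The largest differences among genes that fell in KO with WT within 2-fold were those of Hoxd13, Tnn, Zic1, Mmp3, Hoxa13, Meox2, Mmp13 and Avpr1a. Hoxd13, the most posterior gene of its cluster and a factor of digits and the genital bud, measured 9.09, 0.0373 and 0 CPM in KO, against 21.7, 5.83 and 31.1 CPM for WT, so KO was at least 120-fold lower on day 42 than on day 33 against a floor of 3 counts in that library. Zic1, a zinc finger factor of dorsal tissues, was at 7.74 CPM on day 33 in KO and at 0 on day 42 (at least 102-fold lower), with 2.88 and 2.11 CPM in WT. Tnn, the matrix protein tenascin-N, was at least 48.0-fold lower in KO on day 42, from 3.65 CPM. The stromelysin gene Mmp3 was at least 40.1-fold lower, from 3.05 CPM, and Hoxa13 at least 20.8-fold, from 1.58 CPM. On days 33, 36 and 42, WT read 15.1, 3.46 and 23.9 CPM of Tnn and 6.49, 1.35 and 10.3 CPM of Mmp3. Both thus fell in WT by day 36 and rose again after it. Hoxa13 was at 5.82, 5.53 and 10.8 CPM in WT. The collagenase gene Mmp13 went from 8.94 to 0.101 CPM in KO and from 3.37 to 2.49 CPM in WT, Avpr1a, a vasopressin receptor, from 7.83 to 0.228 CPM in KO, and Meox2, a mesodermal homeobox factor, from 3.47 CPM to 3 counts, 45.6-fold lower (15.2 to 224).

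Genes that rose in KO alone were led by Hs3st3a1, a heparan sulfate sulfotransferase, at 0.508, 6.42 and 8.92 CPM in KO and 3.93, 5.32 and 1.97 CPM in WT. Mycn, a MYC family transcription factor, stood at 0.777, 12.8 and 15.0 CPM in KO and stayed between 0.457 and 0.597 CPM in WT, a 19.3-fold rise in KO (13.1 to 29.8). Wnt2b, a Wnt ligand, rose from 2.15 through 6.38 to 18.1 CPM in KO and read 4.54, 3.95 and 4.37 CPM in WT. The related ligand Wnt2 rose from 0.269 to 1.95 CPM in KO and went from 5.29 to 4.09 CPM in WT. It reached 5 CPM in WT alone, and KO stayed below WT on day 42. Hs3st3b1 went from 1.76 to 7.58 CPM in KO and from 9.09 to 4.72 CPM in WT. Lad1, Upk1b and Sdk1 were the others, at differences of 4.05, 3.97 and 3.65. The WT changes of Hs3st3a1, Hs3st3b1, Sdk1 and Upk1b were -0.97, -0.94, -0.96 and -0.87, just inside the 2-fold bound. Those of Mycn, Lad1, Wnt2b and Wnt2 were smaller.

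Where WT alone rose, Chodl, a membrane C-type lectin, measured 0.299, 3.60 and 8.43 CPM in WT, against 15.0, 17.8 and 9.02 CPM for KO (-5.32). WT thus ended near the KO level rather than away from it. The retinaldehyde dehydrogenase genes Aldh1a7 and Aldh1a1 went from 5.48 to 57.6 CPM and from 3.90 to 37.9 CPM in WT, with 1.95 and 1.597 CPM in KO on day 42. They are close paralogues, and how reads shared by them were assigned is not given in the sources used here. Fmo2, a flavin monooxygenase, went from 1.32 to 20.3 CPM in WT and read 0.179, 0.187 and 0.279 CPM in KO. Esrrg, Scara5, P2ry14 and Dgkg had differences of -3.75 to -3.39. Where WT alone fell, the VEGF receptor gene Flt1 measured 127, 70.6 and 31.6 CPM in WT and 47.0, 78.2 and 70.6 CPM in KO (2.59), and the chemokine Cxcl1 at 14.8, 6.08 and 2.49 CPM in WT and 5.74, 3.47 and 5.88 CPM in KO (2.58). Dgkk, Havcr2, Ccdc88c, Sh3bgrl2 and Lingo2 had differences of 2.57 to 3.37.

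In gene lists, the share past 2-fold is read against the 7.94% of all 12258 genes (2.54% higher, 5.4% lower) and their median of 0.02. Of the 23 HOX genes, which give cells their position along the body and limb axes, 7 were lower, 1 higher and 15 within 2-fold, at a median of -0.24. Split by paralogue number after their values were seen, 6 of the 7 genes numbered 9 to 13 were lower (median -3.68), and of the 16 numbered 1 to 8, 1 was lower and 1 higher (median 0.01). Hoxa9, Hoxa10, Hoxa11, Hoxa13 and Hoxc10 reached 5 CPM in WT alone. In KO they had 1.38, 2.06, 1.26, 1.58 and 0.598 CPM on day 33, and 21, 7, 3, 0 and 3 counts on day 42. The median of -3.68 thus rests on low KO values. Hoxa10 read 2.06, 0.261 and 0.177 CPM in KO and 14.4, 17.8 and 20.1 CPM in WT. Hoxa11 read 1.26, 0.112 and 0.0760 CPM in KO and 6.04, 10.9 and 9.77 CPM in WT. Hoxb9 was the exception among the posterior genes, at 8.85, 18.2 and 10.6 CPM in KO and 25.04, 20.7 and 16.3 CPM in WT (0.88), and all 7 Hoxb genes were within 2-fold. Hoxa7, at 5.05, 31.1 and 22.9 CPM in KO and 10.1, 10.2 and 22.6 CPM in WT, was the 1 higher gene (1.01).

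**Figure D4:**
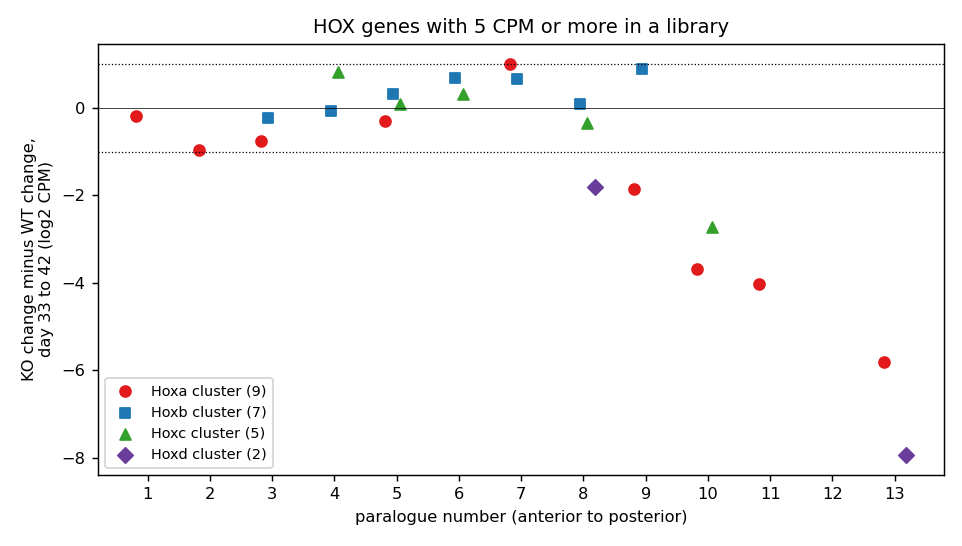
Difference of changes (KO minus WT, log2 CPM, vertical axis) of the 23 HOX genes against paralogue number (horizontal axis), by cluster. Dotted lines mark 2-fold. Of the 7 genes numbered 9 to 13, 6 lie below -1, and Hoxb9 lies at 0.88. Hoxa9, Hoxa10, Hoxa11, Hoxa13 and Hoxc10 reached 5 CPM in WT alone and were low in KO on both days.

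Of 37 other positional transcription factors, 17 were lower and 3 higher (median -0.82). Beside Zic1, the lung and gut mesenchyme factor Foxf1 read 11.0, 1.64 and 0.963 CPM in KO and 3.73, 14.9 and 9.17 CPM in WT, and Msx1, a limb bud factor, 0.867, 0.112 and 0.127 CPM in KO and 3.24, 1.56 and 10.9 CPM in WT. Lmx1b, a factor of the dorsal limb, was at 1.05 CPM in KO on day 33 and 0 on day 42, at least 13.8-fold lower. In WT it read 6.83, 2.16 and 6.60 CPM, a fall by day 36 that was made up by day 42. Lmx1b and Msx1 reached 5 CPM in WT alone, so their differences rest on low KO values. The 3 higher genes were Lhx9 (2.33), Twist2 (1.85) and Alx4 (1.01).

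Of 8 cartilage and bone genes, 5 were lower (median -1.47) and none higher. Col2a1, the main cartilage collagen, fell from 1093 through 130 to 91.4 CPM in KO and read 51.7, 60.2 and 69.6 CPM in WT (-4.01), so KO on day 42 had come close to the WT level. Acan, the cartilage proteoglycan, fell in both genotypes, from 26.5 to 1.14 CPM in KO and from 5.397 to 0.886 CPM in WT. Col10a1 and Sox6 instead rose in WT, to 170 CPM from 43.0 and to 7.80 CPM from 1.003.

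Matrix genes were lower in 15 of 44 cases and higher in 2 (median -0.40). Beside Fmod and Eln, Mfap5, a microfibril protein, went from 16.4 to 4.16 CPM in KO and from 21.7 to 47.9 CPM in WT, and Col15a1 from 4.31 to 1.82 CPM in KO and from 2.86 to 11.6 CPM in WT. Of the 12 fibroblast markers, 5 were lower and none higher (median -0.64). Postn (periostin) read 1283, 223 and 281 CPM in KO and 2098, 1570 and 2223 CPM in WT, Pdgfra 45.5, 18.9 and 14.6 CPM in KO and 97.3, 44.9 and 102 CPM in WT, and Fap and Lum were also lower, at -2.85 and -2.77. Epithelial adhesion and keratin genes went the other way, with 9 of 11 higher and none lower (median 1.85). They include Lad1, Upk1b and Cldn1 named above, and the desmosome gene Dsp, at 0.598, 1.68 and 1.65 CPM in KO and 6.06, 5.48 and 2.14 CPM in WT. For Dsp and Upk1b the KO library stayed below WT on day 42.

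Of 33 Wnt pathway genes, 14 were lower and 2 higher (median -0.49). The R-spondin gene Rspo3, which encodes an enhancer of Wnt signals, read 79.3, 13.5 and 8.85 CPM in KO and 14.3, 13.1 and 39.7 CPM in WT. Nkd1, a feedback inhibitor, read 3.23, 0.560 and 0.608 CPM in KO and 1.86, 1.08 and 8.55 CPM in WT. The 2 higher genes were the ligands Wnt2 and Wnt2b. Of 25 genes of the IGF axis and imprinted growth genes, 10 were lower and none higher (median -0.45). Igf1 read 20.3, 1.01 and 2.23 CPM in KO and 11.4, 7.18 and 32.1 CPM in WT, and Igf2 43.6, 24.4 and 13.5 CPM in KO and 52.4, 20.0 and 185 CPM in WT. Mest, an imprinted gene, went from 77.8 to 36.0 CPM in KO and from 9.07 to 90.3 CPM in WT.

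Of 33 TGF-beta and BMP genes, 9 were lower and 2 higher (median -0.30). Bmp4 read 38.3, 16.6 and 12.9 CPM in KO and 21.2, 9.48 and 65.5 CPM in WT, and the BMP-induced inhibitor Smad6 26.9, 10.2 and 8.36 CPM in KO and 14.9, 20.8 and 27.6 CPM in WT. Of 15 FGF genes, 5 were lower, among them Fgfr2 (-2.61), and 2 higher (median 0.17). Of 12 adipocyte and lipid genes, 5 were lower and none higher (median -0.89). Pparg, the adipocyte master regulator, went from 11.7 to 3.09 CPM in KO and from 6.72 to 12.1 CPM in WT.

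**Figure D5:**
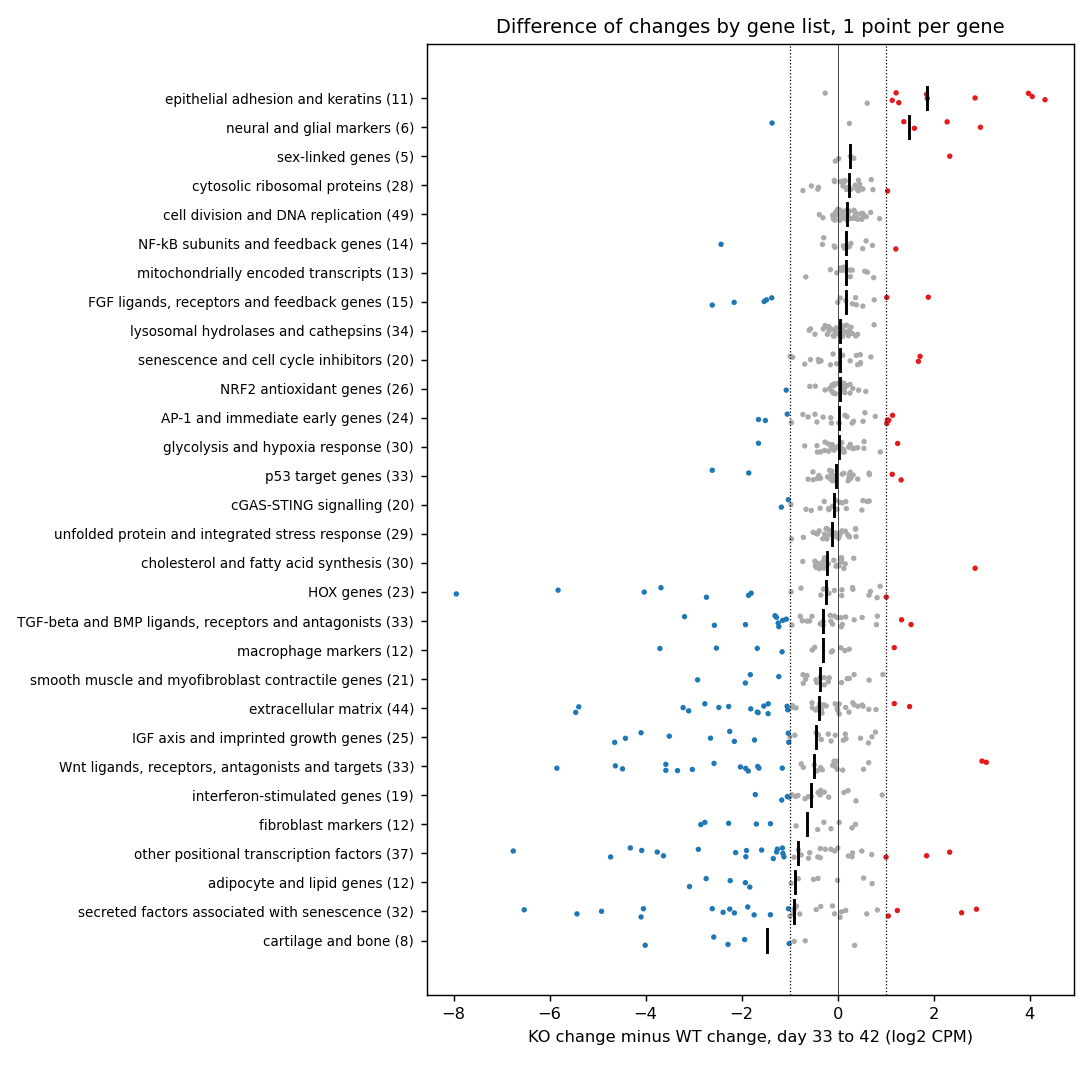
Difference of changes (KO minus WT, log2 CPM, horizontal axis) of the genes of each list with 5 or more members (vertical axis, number of members in brackets), with the median as a bar and 2-fold as dotted lines. Epithelial genes have the highest median, 1.85, and cartilage and bone genes the lowest, -1.47.

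Of 20 genes of cGAS-STING signalling, 2 were lower and none higher (median -0.08). These were Enpp1, which hydrolyses cGAMP, at 46.1, 25.9 and 34.7 CPM in KO and 25.5, 16.7 and 43.4 CPM in WT, and Nlrx1 (-1.03). STING itself, Tmem173, read 35.9, 42.5 and 30.6 CPM in KO and 39.4, 32.6 and 21.3 CPM in WT, within 2-fold (0.66). Of 19 interferon-stimulated genes, 4 were lower and none higher (median -0.55). Lgals3bp read 39.8, 24.6 and 17.9 CPM in KO and 72.8, 48.0 and 108 CPM in WT (-1.72), and Igtp and Bst2 lay at -1.17 and -1.01. Scaling by library totals alone or use of the deposited RPKM took Nlrx1 and Bst2 within 2-fold. Isg15 and Cxcl10 were below the 5 CPM minimum in every library, Isg15 reading 1.05, 1.31 and 0.684 CPM in KO and 1.02, 0.665 and 2.46 CPM in WT.

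Of 32 secreted factors associated with senescence, 13 were lower and 4 higher (median -0.90). Il6 read 12.6, 1.90 and 0.583 CPM in KO and 3.54, 4.36 and 2.94 CPM in WT (-4.05). Igfbp3, an IGF carrier, read 11.8, 1.19 and 0.760 CPM in KO and 108, 46.1 and 126 CPM in WT. Cxcl5 fell in KO from 3.98 CPM to a single count, 157-fold with a wide interval (27.7 to 6244), and read 26.8, 3.65 and 15.8 CPM in WT. The matrix metalloproteinases Mmp3 and Mmp13 are in this list too, and the 4 higher genes were Mmp9, Cxcl1, Plat and Lif. Lif, a cytokine, read 75.4, 107 and 109.5 CPM in KO and 21.7, 23.2 and 15.1 CPM in WT (1.05, within 2-fold when column 2 is left out of every group). Ccl2 moved alike in both genotypes, by -0.56 in KO and -0.72 in WT.

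Cell cycle genes stayed within 2-fold. None of the 49 division and replication genes passed it either way (median 0.19), and Mki67 read 227, 264 and 289 CPM in KO and 147, 160 and 141 CPM in WT. Of 20 senescence and cell cycle inhibitor genes, 2 were higher and none lower (median 0.04), the chromatin proteins Hmga2 and Hmga1, whose WT levels went from 378 to 154 CPM and from 271 to 88.4 CPM while KO stayed at 378 and 506 CPM and at 285 and 297 CPM on days 33 and 42. Cdkn2a, which encodes p16 and ARF, read 40.2, 44.2 and 37.6 CPM in KO and 109, 100 and 84.6 CPM in WT (0.26). Cdkn2b lay at -0.94, Cdkn1a at -0.39 and Lmnb1, the lamin lost in senescent cells, at 0.69.

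Immediate early genes fell in both genotypes: 14 of 24 fell in KO and 14 in WT, and the median change was -1.27 in KO and -1.29 in WT. Fos read 191, 108 and 5.60 CPM in KO and 149, 190 and 9.06 CPM in WT. In their difference of changes, 4 of the 24 were higher and 3 lower (median 0.03). Of the 12 macrophage markers with 5 CPM or more, all 12 fell in KO, and the median change was -6.27 in KO and -5.38 in WT, where Cd53 stayed within 2-fold. The summed level of the 20 markers went from 100 through 10.9 to 8.5 CPM in KO and from 215 through 53.8 to 24.9 CPM in WT. On day 42, 16 of the 20 were below 1 CPM in KO and 14 in WT. In the difference of changes 4 of the 12 were lower and 1 higher, at a median of -0.31 that becomes 0.17 when libraries under 3 counts are set to 3. Lyz2, which has a near-identical paralogue, was at least 371-fold lower in KO on day 42 and 42.0-fold lower in WT. How far macrophage loss touches other genes was not tested.

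A genotype-by-day slope fitted over all 6 libraries, with edgeR's quasi-likelihood test and 2 residual degrees of freedom, is the 1 test the design allows. It called 0 of 17779 genes, or 0%, after Benjamini-Hochberg adjustment, with the lowest adjusted p at 0.583, and 1356 genes had an unadjusted p under 0.05. limma-voom called 0 genes and DESeq2's Wald test 133 of 14676.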

How the data were processed

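The authors deposited estimated counts and RPKM values per gene in 24 columns, 4 for each genotype and day. The submitters' processing notes name Bowtie2 2.2.1, limma 3.18.13 and the build mm10, with no role given. How reads were counted, against which annotation and with which strand rule is not given in the sources used here, so overlapping antisense genes cannot be told apart. The deposited estimated counts were summed over the 4 columns of a group and rounded. TMM factors (edgeR, 6 libraries, genes passing filterByExpr) and log2 CPM with a prior count of 2 gave the changes. Factors over all genes were looked at first, giving 318 higher and 651 lower genes, and the step on filterByExpr genes, 311 and 662, was chosen after those counts were seen. Factors came from all 6 libraries, where the plan named the 4 compared. The transcript table was not used. It holds 48 columns of per-sample values over all samples. RPKM deposited by the authors served as an alternative (log2 of RPKM + 0.1). Members, lists and the 10 motifs were chosen with earlier results of these data known. Named genes are the 8 largest differences in each of 6 classes, up to 4 of each of 32 lists past 2-fold, and a set of senescence and cGAS genes. Some genes that this rule names are not reported here. Other genes given in passing, including Hoxb9, Hoxa7 and the 3 higher positional factors, were named after their values were seen. Nothing in the labels says that the columns are separate cultures. R 4.3.3, edgeR 4.0.16, limma 3.58.1 and DESeq2 1.42.0 were used. The slope test was tried on simulated libraries with the common dispersion of the 6 real ones. There it called 7.46% of genes given a true difference of changes of 1 (log2), 77.6% at 2 and 100% at 4. The simulated differences ran in a straight line over the days and in KO only. The classes above instead stepped before or after day 36, in either genotype. These shares therefore do not tell how often the test would call such genes, and its 0 calls do not speak against large differences. Of unchanged genes with a mean of 5 CPM or more, 4.67% passed 2-fold and 0.07% were called.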

Additional observations from a re-analysis of the deposited data

Results flagged for a closer look

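The 2 genotypes moved opposite ways, each past 2-fold between single libraries, in the 16 named genes below. With 1 library per group the opposite directions were not tested as such, and the slope test over 6 libraries gave none of them an adjusted p under 0.05 (edgeR's quasi-likelihood test, lowest adjusted p over all genes 0.583). They were also selected for this difference. The WT changes of Lrrtm1, Fndc3c1 and Pax1 rest on few counts, and their counting intervals include changes of less than 2-fold. The difference of changes (KO minus WT, log2 CPM) was 6.37 for Crabp1, 5.18 for C77370, 5.12 for F2rl1, 4.32 for Cldn1, 4.19 for Lrrtm1, 4.16 for Slco4a1, 3.64 for Fndc3c1 and 3.32 for Eml5. Among the genes that fell in KO and rose in WT it was -7.36 for Tmtc1, -7.20 for Gprin3, -6.72 for Penk, -6.38 for Clec14a, -6.36 for Pax1, -6.03 for Foxd1, -5.85 for Sfrp2 and -5.67 for Islr.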

How the results depend on the processing

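The counts of 311 higher and 662 lower genes depended most on the minimum level: a minimum of 1 CPM gave 551 and 1127, and no minimum gave 1909 and 2416, with list members past 2-fold going from 165 to 261 and the lower genes' share from 68.0% to 55.9%. Normalization, prior count, RPKM and a minimum of 10 CPM kept each count within 1.5 times. Leaving out column 1, 2, 3 or 4 in all groups gave 299 to 312 higher and 671 to 683 lower genes. Of 128 named genes past 2-fold, 120 to 128 kept direction and 2-fold over these settings, and Mpeg1 reversed with RPKM (0.33). Scaling by library totals alone moved the median of all genes from 0.02 to 0.09 and took Nlrx1, Bst2, Ccl7, Cxcl10 and Fos within 2-fold. Alternatives added after seeing the data were TMM factors over all genes (318 and 651) or from the 4 libraries alone (312 and 663) and a floor of 3 counts. Treating the 24 columns as separate samples called 302 and 683 genes, and the replicate block of column numbers gave 302 and 683 as well. The columns of a group differ by less than sampling noise, so leaving 1 out or splitting them had to give close counts. Neither setting says anything about variation between cultures. Column numbers do not pair the columns: same-numbered columns correlated at a median of 0.01. The slope test called 0 genes under every edgeR and limma setting and with each library left out, and 133 with DESeq2; the cause was not tested. Depth limits genes near the minimum, where 1 library holds few counts.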

Other observations

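Several housekeeping groups not described above stayed close to the median of all genes. Of 34 lysosomal genes, 29 genes of the unfolded protein and integrated stress responses and 13 mitochondrially encoded transcripts, 0 passed 2-fold in the difference of changes. The mitochondrial transcripts had median changes of -0.70 in KO and -0.83 in WT over the 9 days, but the genotypes parted on day 36. KO went by -1.08 and then 0.32, and WT by 0.45 and then -1.37, with KO at a median of -2.27 against WT on day 36. Of 33 p53 target genes, 2 were higher, Plk2 (1.32) and Perp (1.14), and 2 lower, Gdf15 (-2.61) and Fas (-1.85). Of 26 NRF2 antioxidant genes, 1 was lower, Gstm2 (-1.07). In the neural and glial list, 4 of 6 genes were higher and 1 lower (median 1.49), with Gap43, a growth cone protein, at 17.3, 95.5 and 47.8 CPM in KO and 7.77, 4.02 and 2.69 CPM in WT, and Nes (nestin) at 203, 415 and 411 CPM in KO and 166, 318 and 111 CPM in WT. In the contractile list, 4 of 21 were lower, among them Mylk, the myosin light chain kinase, at 20.7, 6.91 and 5.73 CPM in KO and 22.5, 39.0 and 47.5 CPM in WT. The actin gene Acta2 stayed within 2-fold (-0.67).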
